A study of Mus musculus with 52 samples.

Results

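Whole-eye RNA was compared between wild-type mice and Tug1-/- mice, in which both copies of the Tug1 gene body were removed. The comparison holds 6 of the 52 samples of the series: 3 eye wild-type and 3 eye Tug1-/- libraries, chosen by their tissue label. All 6 came from male mice on a mixed C57BL/6J and 129S6 background, of the colony that carries the Tug1_tm1.1Vlcg allele. In that allele a lacZ reporter cassette takes the place of the Tug1 gene body, with the promoter and the first exon left in place, and the neo selection cassette had been removed with CMV-cre. The allele is carried in the germline, so the comparison is not of an eye-specific deletion. The study describes the tissues it sequenced, apart from embryonic fibroblasts, as adult. The exact age at which eyes were taken, and how much muscle, fat and gland was trimmed from the globe, are not given in the sources used here.

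The deposited eye values are 1 mean per genotype for each gene, in TPM, a unit that scales reads by gene length and then to a fixed total. Values of single mice were not analysed here, so there is no spread between the 3 mice of a group, no test and no p-value, and every difference below is a difference between 2 means. A difference is given as the log2 ratio of Tug1-/- to wild type after 0.1 TPM was added to each mean. Intervals in brackets are approximate 95% intervals that cover read counting error only, computed from the mean normalized count of the gene. They are narrower than the spread between mice would be, so an interval that leaves out 0 does not show that genotypes differ. "Past 1.5-fold" means a log2 ratio above 0.58 or below -0.58 in a gene of at least 1 TPM in either mean. In whole tissue, fewer cells of a type and less RNA per cell cannot be told apart.

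Tug1 (taurine upregulated gene 1) is a long noncoding RNA that was first found in cultured retinal cells exposed to taurine. The eye it is measured in here is a composite organ. Rods and cones of the retina turn light into a change in membrane current through opsins, transducin, phosphodiesterase and cyclic nucleotide-gated channels, and bipolar, amacrine, horizontal and ganglion cells carry the signal on. The pigment epithelium behind the retina recycles retinal, lens fibre cells are packed with crystallin proteins, and the cornea and conjunctiva are covered by a stratified epithelium held together by keratins and desmosomes. Extraocular muscle, fat, glands, vessels and nerve lie around the globe.

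Tug1 and Morc2a, which encodes a chromatin ATPase of the MORC family, are transcribed away from each other from one shared promoter region on chromosome 11. In RefSeq annotation of GRCm38.p6 their start sites lie 623 bases apart. The table's own annotation (GENCODE on GRCm38) places Tug1 at chr11:3639785-3649673 on the minus strand and Morc2a at chr11:3649494-3690477 on the plus strand, so that the annotated starts of both genes overlap. The strand setting of the counting is not given in the sources used here, and reads from the overlap cannot be assigned to either gene with certainty. Both promoters are printed because the first is the part of Tug1 that the allele retains and the second belongs to the gene closest to the deletion. Each runs from 250 bases before to 50 bases after the RefSeq start, 5′ to 3′, with the GC box GGGCGG (searched on both strands) in capitals. GGGCGG occurs in 35.7% of 32851 mouse promoters of that length.
Tug1 (chr11:3648765-3649064, minus strand): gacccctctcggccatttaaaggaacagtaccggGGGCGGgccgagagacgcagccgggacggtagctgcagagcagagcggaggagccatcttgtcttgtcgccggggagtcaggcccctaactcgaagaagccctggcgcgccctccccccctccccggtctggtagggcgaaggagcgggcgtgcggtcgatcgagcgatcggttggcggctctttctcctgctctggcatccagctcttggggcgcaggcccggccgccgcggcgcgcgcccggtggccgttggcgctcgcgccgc
Morc2a (chr11:3649187-3649486, plus strand): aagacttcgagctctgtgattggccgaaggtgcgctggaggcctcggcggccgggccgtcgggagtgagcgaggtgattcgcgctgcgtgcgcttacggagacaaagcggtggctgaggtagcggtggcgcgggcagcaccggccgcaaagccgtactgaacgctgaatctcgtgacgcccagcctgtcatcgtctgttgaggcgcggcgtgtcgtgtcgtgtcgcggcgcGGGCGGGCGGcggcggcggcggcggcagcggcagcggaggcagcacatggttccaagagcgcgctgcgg
The Tug1 window holds 1 such box and the Morc2a window 2 that overlap.

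Tug1 RNA was nearly gone from Tug1-/- eyes. Wild-type eyes had a mean of 57.5 TPM, against 0.235 TPM after deletion, which is 0.408% of the wild-type level and a log2 ratio of -7.43 [-7.73 to -7.13]. The wild-type eye had the highest Tug1 level of the 6 tissues set side by side, above 53.8 TPM in spleen, 46.4 TPM in mouse embryonic fibroblasts (MEFs), 27.8 TPM in prostate, 11.6 TPM in heart and 10.1 TPM in liver. Whether eye and spleen differ beyond the spread between mice could not be tested.

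The tissue label held against marker genes. Alpha A-crystallin (Cryaa) stood at 12449 and 12094 TPM in eyes, and the corneal keratin Krt12 at 1872 and 1085 TPM, with Krt12 listed in none of the other 5. The liver gene Alb was at 0.486 and 0.0388 TPM in eyes, the cardiac myosin Myh6 at 0.497 and 0.833 TPM, and Pbsn of the prostate was not listed. The eye rows hold 28210 genes, and their mean normalized counts sum to 48341823 per library.

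Of 19709 eye genes with at least 1 TPM in either mean, 628 (3.19%) were past 1.5-fold higher in Tug1-/- eyes and 923 (4.68%) past 1.5-fold lower, 7.87% in either direction. The median log2 ratio over all 19709 was -0.11, and 27.7% of genes had a ratio above 1. When ratios were centred on that median, 823 genes were higher and 639 lower. The share of higher genes among those past 1.5-fold was thus 40.5% as deposited and 56.3% after centring. Among 15218 protein-coding genes the counts were 417 higher (2.74%) and 254 lower (1.67%). All list medians below are read against -0.11. The gene lists were chosen with earlier results of these data known.

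**Figure D1:**
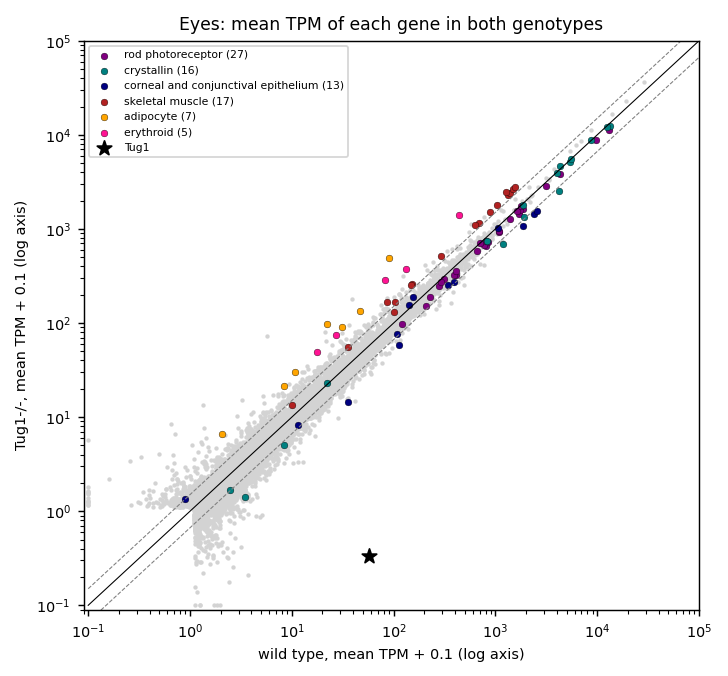
Mean TPM of each eye gene in wild type (x axis) and Tug1-/- (y axis), both with 0.1 TPM added, on log axes; grey points are the 19709 genes of at least 1 TPM, coloured points the members of 6 marker lists, the solid line equality and the dashed lines a 1.5-fold difference. Tug1 lies far below the line at 57.5 and 0.235 TPM, adipocyte and erythroid genes lie above the upper dashed line, and rod genes lie just under the line of equality.

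The deletion's surroundings were examined first, since the study asks whether genes near Tug1 change with it. Of 53 listed genes with their start within 1 Mb of the Tug1 start, 41 reached 1 TPM, and 9 of these (22%) were past 1.5-fold, beside 7.87% of all eye genes. The 6 higher genes (14.6%, beside 3.19%) all started between 109 and 197 kb from Tug1 on the side into which Tug1 is transcribed. Nearest to the deletion, Morc2a was lower.

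The 6 higher genes sit in one stretch, which holds 1 other gene of at least 1 TPM, the snoRNA Gm24439 (1.80 and 1.75 TPM, -0.04 [-1.41 to 1.33]). Rnf185, an E3 ubiquitin ligase of the endoplasmic reticulum, had 62.5 TPM in wild type against 116 TPM in Tug1-/-, a log2 ratio of 0.89 [0.85 to 0.93]. Selenom, a selenoprotein of the endoplasmic reticulum, had 102 and 189 TPM, a log2 ratio of 0.89 [0.85 to 0.94]. Smtn, which encodes the smooth muscle protein smoothelin and starts 109 kb from Tug1, had 32.9 and 58.4 TPM (0.82). Inpp5j, a phosphoinositide phosphatase, had 10.2 and 17.5 TPM (0.77), Pla2g3, a secreted phospholipase A2, 2.33 and 3.75 TPM (0.66), and the noncoding 8430429K09Rik 5.18 and 8.05 TPM (0.63). With a pseudocount of 1 TPM, Pla2g3 (0.51) and 8430429K09Rik (0.55) were inside the limit, and 6 genes of the window were past it, 4 higher and 2 lower. 8430429K09Rik and Rnf185 have adjoining starts on opposite strands, 197 kb from Tug1. No gene of the window was past 2-fold.

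Morc2a had 41.3 TPM in wild-type against 26.2 TPM in Tug1-/- eyes, a log2 ratio of -0.66 [-0.70 to -0.61]. After centring on the median its log2 ratio was -0.55, inside the limit, and 7 genes of the window were past it, 6 higher and 1 lower. The other lower genes, Gm11948 (9.15 and 5.68 TPM, -0.68 [-1.0 to -0.36]) and Gm11399 (1.19 and 0.650 TPM, -0.78 [-1.98 to 0.42]), are noncoding and rest on few reads. Gm11948 is annotated as sense intronic, so its reads may be those of its host gene. Beside Morc2a, whose start and the Tug1 start overlap in the table's annotation, all 8 genes past the limit started on the side into which Tug1 is transcribed. On the other side, Osbp2, an oxysterol-binding protein whose start is 214 kb away, had 264 and 299 TPM (0.18), and Dusp18, at 246 kb, had 6.54 and 8.34 TPM (0.35). Limk2, an actin-regulating kinase 240 kb away on the first side and just past Rnf185, had 105 and 85.6 TPM (-0.29).

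Of these neighbours, Rnf185 was past 1.5-fold higher in all 5 other tissues, with log2 ratios of 1.12 in heart, 1.04 in liver, 0.81 in spleen, 0.93 in prostate and 0.92 in MEFs. Selenom had 1.09, 0.91, 0.51, 1.03 and 0.80 in the same order. Morc2a had -0.51 in heart, -3.33 in liver, -1.57 in spleen, -3.09 in prostate and -0.46 in MEFs, so the eye value of -0.66 was among the smaller ones. Samples of different tissues may come from the same mice, which the labels do not say, and no difference between tissues was tested.

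**Figure D2:**
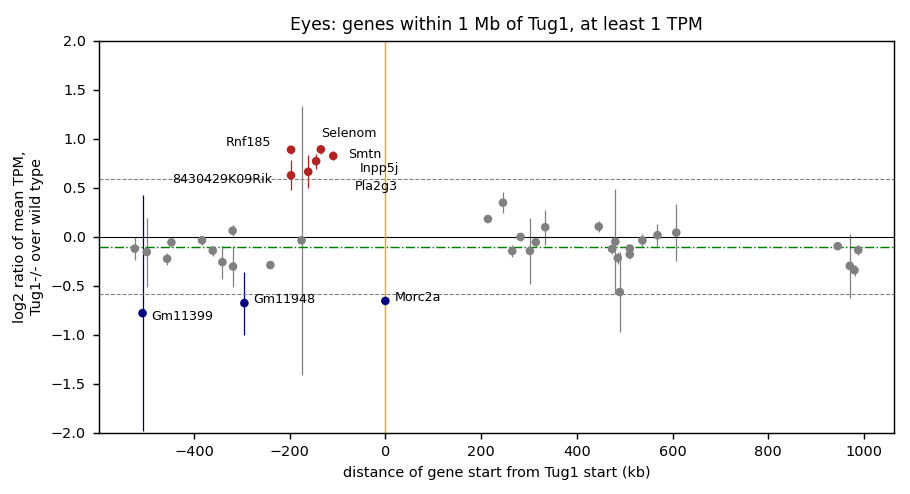
Log2 ratio of mean TPM, Tug1-/- over wild type (y axis), of the 41 eye genes within 1 Mb of Tug1 and at least 1 TPM, against the distance of their start from the Tug1 start in kb (x axis; negative is the side into which Tug1 is transcribed). Bars are approximate 95% counting intervals, dashed lines the 1.5-fold limits and the green line the median of all eye genes; the 6 red genes cluster between -197 and -109 kb, and Morc2a lies at the deletion with -0.66.

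Rod photoreceptor genes were slightly lower in Tug1-/- eyes. All 27 listed rod genes reached 1 TPM, none was past 1.5-fold, and each had a ratio below 1, with a median log2 ratio of -0.19, beside -0.11 over all eye genes. Their summed level was 49672 TPM in wild type against 44395 TPM in Tug1-/-. After centring, the rod median was -0.08, with 22 genes below the median of all eye genes and 5 above it.

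By role, in lists written after the values were seen, the median was -0.16 over 16 genes of the transduction cascade, -0.20 over 5 structural genes of the outer segment and -0.27 over 3 transcription factors. Gnat1, the rod transducin alpha subunit, had 9815 and 8902 TPM (-0.14), and Pdc, phosducin, 1621 and 1562 TPM (-0.05). The phosphodiesterase subunits Pde6a (1686 and 1435 TPM, -0.23) and Pde6b (1095 and 947 TPM, -0.21) and arrestin (Sag, 1078 and 919 TPM, -0.23) were lower by a similar amount. Of the outer segment proteins, the disc rim protein Prph2 had 4324 and 3864 TPM (-0.16), its partner Rom1 3125 and 2884 TPM (-0.12), and the retinoid transporter Abca4 407 and 325 TPM (-0.33). The transcription factors that set rod identity had 661 and 589 TPM for Nrl (-0.16), 391 and 324 TPM for Nr2e3 (-0.27) and 813 and 666 TPM for Crx (-0.29). Rpgrip1, a protein of the connecting cilium, had the lowest ratio in the list (210 and 152 TPM, -0.47).

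Cone genes showed a wider range. Of 10, none was past 1.5-fold, 9 had a ratio below 1 and 1 above 1 (27.7% of all eye genes were above 1). The median was -0.28, or -0.17 after centring, with 8 genes below the median of all eye genes and 2 above it. Opn1sw, the short-wave cone opsin, had 343 and 235 TPM, a log2 ratio of -0.55 [-0.57 to -0.52], whereas Opn1mw, the middle-wave opsin, had 165 and 150 TPM (-0.14). Pde6c, the catalytic subunit of the cone phosphodiesterase, had 93.7 and 64.2 TPM (-0.55), while its inhibitory subunit Pde6h had 27.9 and 31.2 TPM (0.16). The cone transducin Gnat2 had 155 and 120 TPM (-0.37).

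In the inner retina, all 12 bipolar genes had a ratio below 1 (median -0.26), 10 of them below the median of all eye genes, and 1 was past 1.5-fold lower (4.68% of all eye genes were). That gene was Vsx1, a homeobox factor of cone bipolar cells, with 23.1 and 15.2 TPM (-0.59 [-0.67 to -0.52]), and it was inside the limit after centring and with a pseudocount of 1 TPM (-0.57). The ON-bipolar glutamate receptor Grm6 had 62.2 and 48 TPM (-0.37), and its channel Trpm1 105 and 86.9 TPM (-0.27). Protein kinase C alpha, Prkca, a rod bipolar marker, had 115 and 110 TPM (-0.06).

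Of 11 amacrine and horizontal cell genes, 10 had a ratio below 1 and 1 above 1 (27.7% of all eye genes were above 1). The median was -0.25, or -0.14 after centring, with 8 genes below the median of all eye genes and 3 above it. Past 1.5-fold higher was 1 gene (3.19% of all eye genes were). The glycine transporter Slc6a9 had 74.4 and 62.6 TPM (-0.25), the GABA-synthesizing enzyme Gad1 had 92.1 and 73.9 TPM (-0.32) and the amacrine factor Tfap2b 85.6 and 67.1 TPM (-0.35). The exception was Th, tyrosine hydroxylase of the dopaminergic amacrine cells, which had 3.52 and 5.35 TPM (0.59 [0.40 to 0.79]) and was just past the limit, but inside it with a pseudocount of 1 TPM (0.49). Ganglion cell genes had a median of -0.13 over 11, near that of all genes. Pou4f2, which drives ganglion cell fate, had 8.13 and 6.27 TPM (-0.37), the light neurofilament Nefl 216 and 196 TPM (-0.14), and Sncg 197 and 202 TPM (0.03).

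Muller glia, the radial glia of the retina, kept their genes close to equality: none of 10 was past 1.5-fold, and the median was -0.06, or 0.05 after centring. Glul, glutamine synthetase, had 2072 and 2084 TPM, and the retinaldehyde-binding protein Rlbp1 629 and 588 TPM (-0.10). Genes that stressed retina is known to induce all had a ratio above 1. All 10 reached 1 TPM, and 2 were past 1.5-fold higher (median 0.21). Of all eye genes, 27.7% had a ratio above 1 and 3.19% were past 1.5-fold higher. Those 2 were Lcn2, lipocalin 2, with 3.87 and 6.08 TPM (0.64 [0.46 to 0.81]), and the transcription factor Cebpd with 6.81 and 10.7 TPM (0.64). With a pseudocount of 1 TPM both were inside the limit (0.54 and 0.58). Serpina3n, a protease inhibitor of reactive astrocytes, had 98.0 and 131 TPM (0.42), Gfap, the intermediate filament of reactive glia, 134 and 156 TPM (0.22), and the photoreceptor-derived endothelin Edn2 4.4 and 5.29 TPM (0.26). The cytokine Lif, which lies in the Tug1 window, had 1.06 and 1.09 TPM. Lcn2, Cebpd and Serpina3n are also made outside the retina, and which cells carried the difference was not tested.

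Pigment cell genes stood near equality. Among 9 pigment epithelium genes none was past 1.5-fold, with a median of -0.01 that was 0.10 after centring, 0.03 rescaled without mitochondrially encoded genes and 0.0058 rescaled without skeletal muscle list genes. Ttr, transthyretin, the most abundant, had 2252 and 2247 TPM (0.00). The retinoid isomerase Rpe65 had 449 and 438 TPM (-0.03), Lrat, which makes retinyl esters, 104 and 116 TPM (0.15), and the lactate transporter Slc16a8 127 and 114 TPM (-0.17). Among 10 melanin genes the median was -0.02 (0.09 after centring and 0.02 rescaled without mitochondrially encoded genes). Tyr, the enzyme that starts melanin synthesis, had 39.4 and 37.9 TPM (-0.06), Tyrp1 598 and 603 TPM (0.01) and Pmel, the melanosome fibril protein, 595 and 525 TPM (-0.18).

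In the lens, the gamma crystallins of the chromosome 1 cluster were lower, whereas the alpha and beta crystallins stood close to equality. Crygb had 4248 TPM in wild type against 2554 TPM in Tug1-/- eyes, a log2 ratio of -0.73 [-0.75 to -0.72]. Crygd had 1191 and 692 TPM (-0.78), and Crygc 1925 and 1348 TPM (-0.51). The minor members Cryga (3.41 and 1.33 TPM, -1.29 [-1.82 to -0.76]), Crygf (8.34 and 4.91 TPM, -0.75 [-1.07 to -0.43]) and Cryge (2.39 and 1.57 TPM, -0.58 [-1.11 to -0.04]) rest on few reads. All 6 thus had a ratio below 1, 4 of them past 1.5-fold (4.68% of all eye genes were past it downward), and their summed level was 7378 TPM in wild type against 4602 TPM in Tug1-/-. These genes are near-identical copies, so the split of reads among them is uncertain, more so than their sum.

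The other 10 crystallins had log2 ratios from -0.14 to 0.12. Cryaa had a log2 ratio of -0.04, and Cryab, the stress-inducible alpha crystallin that other tissues also make, had 4269 and 4630 TPM (0.12). Crybb2, the most abundant of the list, had 13352 and 12477 TPM (-0.10), and Cryba1 5576 and 5591 TPM (0.00). The 6 beta crystallins summed to 30999 and 29717 TPM. Crygs, which lies outside the cluster and is the gamma crystallin of the adult lens cortex, had 8606 and 8776 TPM (0.03). Over all 16 crystallins the median was -0.07, or 0.03 after centring.

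The promoters of the 4 gamma crystallins past the limit are printed because these genes lie in 1 family and were lower together. Each runs from 110 bases before to 10 bases after the RefSeq start (GRCm38.p6), 5′ to 3′, with TATATA and CCTTTTGTG in capitals where either occurs, both searched on both strands.
Cryga (chr1:65103354-65103473, minus strand): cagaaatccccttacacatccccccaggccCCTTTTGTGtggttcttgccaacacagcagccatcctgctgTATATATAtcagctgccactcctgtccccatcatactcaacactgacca
Crygb (chr1:65082281-65082400, minus strand): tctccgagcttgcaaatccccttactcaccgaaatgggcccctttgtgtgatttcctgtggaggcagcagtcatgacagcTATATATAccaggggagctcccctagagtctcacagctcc
Crygd (chr1:65063431-65063550, minus strand): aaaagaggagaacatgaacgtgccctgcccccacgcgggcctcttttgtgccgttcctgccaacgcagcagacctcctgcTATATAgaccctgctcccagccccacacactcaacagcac
Crygf (chr1:65926412-65926531, plus strand): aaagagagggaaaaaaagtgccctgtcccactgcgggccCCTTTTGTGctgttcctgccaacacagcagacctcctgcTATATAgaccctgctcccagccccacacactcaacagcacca
TATATA occurs in all 6 gamma cluster promoters and in 5.67% of the 32851 promoters, and CCTTTTGTG in 4 of the 6 and in 0.377% of all. The letters searched were chosen after the values were seen, and these copies share sequence by descent, so the matches are a description.

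Lens fibre genes that encode other proteins also stood near equality in most cases. Of 12 such genes 11 reached 1 TPM, and none was past 1.5-fold (median -0.07, 0.04 after centring). Mip, the main water channel of fibre membranes, had 473 and 480 TPM (0.02), and the beaded filament proteins Bfsp1 and Bfsp2 1106 and 923 TPM (-0.26) and 722 and 687 TPM (-0.07). Lgsn, lengsin, the most abundant of the list, had 1386 and 1245 TPM (-0.16). Foxe3, a factor of the lens epithelium, had 6.93 and 5.36 TPM (-0.36). At the other end, the galectin-related Grifin had 419 and 611 TPM (0.55 [0.51 to 0.58]), past the limit after centring.

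**Figure D3:**
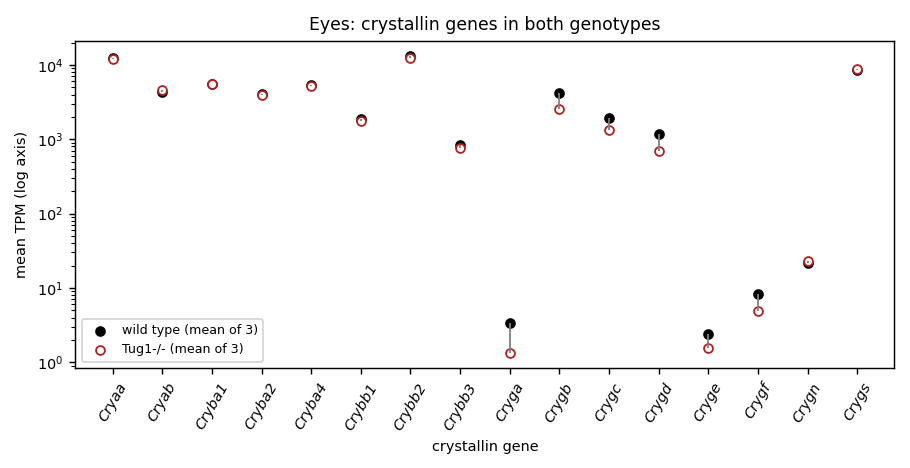
Mean TPM (log axis) of the 16 crystallin genes in wild-type (filled) and Tug1-/- (open) eyes, each point the authors' mean of 3 libraries, joined by a line. Alpha and beta members and Crygs nearly coincide, whereas Cryga to Crygf have the open point below the filled one.

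Genes of the surface epithelium were lower, some of them abundant. The 13 corneal and conjunctival epithelium markers summed to 9154 TPM in wild type against 6135 TPM in Tug1-/- eyes, and their median log2 ratio was -0.51. Of the 13, 5 were past 1.5-fold lower (4.68% of all eye genes were) and 1 higher. Krt12, the keratin of differentiated corneal epithelium, had 1872 and 1085 TPM (-0.79 [-0.80 to -0.77]). Krt5, a keratin of the basal layer, had 2538 and 1558 TPM (-0.70), and Aldh3a1, the aldehyde dehydrogenase that makes up much of the corneal epithelium's soluble protein, 2395 and 1443 TPM (-0.73). Dsp, desmoplakin, had 113 and 57.9 TPM (-0.97), and Dsg1a, a desmosomal cadherin, 35.4 and 14.4 TPM (-1.29).

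Other markers of the list were not past the limit downward. Krt15, a keratin of basal limbal and conjunctival cells, had 1052 and 1018 TPM (-0.05), Krt14 142 and 157 TPM (0.14) and Krt4, a conjunctival keratin, 154 and 189 TPM (0.29). Trp63, the master factor of stratified epithelia, had 11.4 and 8.17 TPM (-0.48). Ly6d, the member past the limit upward, had 0.797 and 1.26 TPM, with an interval of -0.13 to 1.32.

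The 15 lowest log2 ratios outside the Tug1 window were taken among 13837 genes of at least 5 TPM and a mean normalized count of at least 50. The keratins Krt75 (5.01 and 0.810 TPM, -2.49 [-2.78 to -2.20]), Krt78 (10.2 and 3.11 TPM, -1.68) and Krt80 (60.1 and 28.8 TPM, -1.06) and the desmosomal cadherins Dsg1a and Dsg3 (34.6 and 15.5 TPM, -1.15) are among them. So are Ly6g6c (28.5 and 9.73 TPM, -1.54), the phosphate transporter Slc34a2 (16.9 and 6.26 TPM, -1.42), the membrane mucin Muc15 (9.29 and 4.0 TPM, -1.20), the actin-severing Scin (35.3 and 16.0 TPM, -1.14), the epithelial serine protease Tmprss11e (14.7 and 6.75 TPM, -1.11), Nccrp1 (76.9 and 37.4 TPM, -1.04), Paqr5, a membrane progesterone receptor (16.5 and 8.15 TPM, -1.01), and Psca, a cell surface antigen that reached 493 and 251 TPM (-0.97). The remaining ones were Npvf, a neuropeptide precursor, with 41.6 and 14.7 TPM (-1.50 [-1.65 to -1.35]), and Gm23935, annotated as a miRNA gene, which libraries of this kind measure poorly.

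Whole families were then counted, as lists written after the values were seen. Of 15 desmosome genes, 14 reached 1 TPM, 10 of these were past 1.5-fold lower (4.68% of all eye genes were), and the median was -0.65. After centring 6 were past the limit, without Dsc2, Ppl, Pkp1 and Pkp3, and the median was -0.54. The plaque proteins Evpl (83.3 and 46.5 TPM, -0.84), Ppl (121 and 77.9 TPM, -0.64) and Pkp1 (56.5 and 36.6 TPM, -0.62) were on the lower side with Dsc2 (63.7 and 40.3 TPM, -0.66) and Dsc3 (58.8 and 30.1 TPM, -0.96). Pkp2 and Pkp4, which simple epithelia and other tissues also use, had -0.09 and 0.02. Of 21 keratins at 1 TPM, 8 were past 1.5-fold lower and none higher, with a median of -0.26. After centring 7 were past the limit, without Krt10, and the median was -0.15. Of the 21, 12 were below the median of all eye genes and 9 above it. Krt6a (280 and 170 TPM, -0.72), Krt6b (386 and 214 TPM, -0.85) and Krt10 (19.1 and 11.9 TPM, -0.68) of differentiating stratified epithelium were lower, while the simple epithelial keratins Krt8 (36.1 and 40.0 TPM, 0.15), Krt18 (165 and 163 TPM, -0.02) and Krt19 (60.5 and 76.0 TPM, 0.33) were not.

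Beneath the epithelium, none of 13 stroma and sclera genes was past 1.5-fold, and the median was -0.18. A ratio below 1 was found for 11 and above 1 for 2 (27.7% of all eye genes were above 1). After centring the median was -0.08, with 9 genes below the median of all eye genes and 4 above it. Col1a1 and Col1a2, the chains of type I collagen, had 244 and 170 TPM (-0.52) and 172 and 132 TPM (-0.37). Kera, keratocan of the corneal stroma, had 114 and 88.2 TPM (-0.37), and Dcn, decorin, 679 and 598 TPM (-0.18). Col3a1, more typical of loose connective tissue, had 51.8 and 65.2 TPM (0.33).

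Skeletal muscle genes were higher as a block. All 17 reached 1 TPM and had a ratio above 1, and 15 were past 1.5-fold (3.19% of all eye genes were). Their summed level was 11225 TPM in wild type against 19687 TPM in Tug1-/- eyes, which is 1.12% and 1.97% of all TPM, and the median log2 ratio was 0.78. Acta1, skeletal alpha-actin, had 1277 and 2464 TPM (0.95 [0.94 to 0.96]), Mb, myoglobin, 1550 and 2784 TPM (0.84), and Tnnt3, fast troponin T, 1502 and 2627 TPM (0.81). Tnnc2, fast troponin C, had 86.5 and 167 TPM (0.95).

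The myosin heavy chains included one typical of extraocular muscle. Myh13, the extraocular myosin, had 146 and 256 TPM (0.81), the fast chains Myh1 and Myh4 had 295 and 520 TPM (0.82) and 686 and 1152 TPM (0.75), and Myh2 had 99.8 and 130 TPM (0.38). Ttn, titin, had the other ratio within the limit (10.0 and 13.2 TPM, 0.40). In a list of 9 slow and embryonic muscle genes written after the values were seen, 6 were past 1.5-fold higher, beside 3.19% of all eye genes. Actc1, cardiac alpha-actin, had 244 and 448 TPM (0.88) and the slow myosin Myh7 10.5 and 17.8 TPM (0.76), whereas the embryonic myosin Myh3 had 134 and 144 TPM (0.11). A list of 7 muscle endplate genes was also written after the values were seen (median 0.37). Of these, 3 were past 1.5-fold higher, beside 3.19% of all eye genes. They were the acetylcholine receptor subunits Chrna1 (7.48 and 13.1 TPM, 0.80), Chrnd (1.62 and 3.39 TPM, 1.02) and Chrne (5.73 and 11.4 TPM, 0.98). The subunit Chrnb1, the most abundant of the list, had 25.7 and 27.6 TPM (0.10). Musk, Rapsn and Dok7 had 0.30, 0.30 and 0.37. The intermediate filament Des, which muscle fibres share with smooth muscle, had 159 and 261 TPM (0.71), while the smooth muscle genes Acta2 (269 and 261 TPM, -0.04) and Myh11 (65.0 and 63.4 TPM, -0.04) stood near equality. Over all 9 pericyte and smooth muscle genes the median was -0.04, or 0.07 after centring and 0.0028 rescaled without mitochondrially encoded genes.

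Adipocyte genes were higher still. All 7 were past 1.5-fold (3.19% of all eye genes were past it upward), their median log2 ratio was 1.57, and their summed level was 209 TPM in wild type against 875 TPM in Tug1-/- eyes. Cfd, adipsin, had 89.2 and 492 TPM (2.46 [2.41 to 2.51]), and Cidec, a lipid droplet protein, 21.9 and 97.4 TPM (2.14). Adipoq, adiponectin, had 30.7 and 91.4 TPM (1.57), Fabp4 46.5 and 136 TPM (1.54), Plin1, which coats lipid droplets, 10.5 and 30.3 TPM (1.51), Lep, leptin, 1.94 and 6.48 TPM (1.69), and Retn, resistin, 8.23 and 21.2 TPM (1.35).

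Cfd, Cidec and Lep were among the 15 highest ratios outside the Tug1 window, and other genes were, too. Cyp2e1, a cytochrome P450, had 39.1 and 181 TPM (2.21), Orm1, an acute phase protein, 3.16 and 15.3 TPM (2.24), Hp, haptoglobin, 20.9 and 81.1 TPM (1.95), Ces1f 1.32 and 5.92 TPM (2.08), Mrap, the melanocortin receptor accessory protein, 2.82 and 10.1 TPM (1.81), and Adig, adipogenin, 5.06 and 16.8 TPM (1.71). In a list of 14 genes of lipid synthesis and storage written after the values were seen, 11 were past 1.5-fold higher (3.19% of all eye genes were). Lpl, lipoprotein lipase, had 29.6 and 64.6 TPM (1.12) and Dgat2 42.1 and 80.2 TPM (0.93), but Acaca, acetyl-CoA carboxylase, had 19.2 and 19.7 TPM (0.03) and Acly 196 and 184 TPM (-0.09). Ucp1, the uncoupling protein of brown fat, had 1.70 and 0.354 TPM.

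The same lists had other values in other tissues. The adipocyte median was 2.00 in prostate and -1.13 in heart, and the skeletal muscle median was -2.65 in heart and 0.07 in prostate, over the members that reached 1 TPM there. Cfd had 66.2 TPM in wild-type against 361 TPM in Tug1-/- prostate (2.45), but 135 and 76.3 TPM in heart (-0.83). The part of muscle and fat in the other differences was not tested.

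Blood genes formed a further high group. Of 6 erythroid genes 5 reached 1 TPM, and all 5 were past 1.5-fold higher, beside 3.19% of all eye genes (median 1.49), with summed levels of 700 and 2179 TPM. Hbb-bs, beta globin, had 439 and 1396 TPM (1.67), Hbb-bt 82.4 and 287 TPM (1.80), Hba-a1, alpha globin, 133 and 371 TPM (1.48), and Alas2, the enzyme that starts haem synthesis in red cells, 17.5 and 49.6 TPM (1.49). Globin copies are near-identical, so single values are uncertain. The erythroid median was 0.93 in spleen, 0.72 in prostate, 0.00 in liver and -0.35 in heart.

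Platelet and neutrophil genes had low levels. Of 6 platelet genes at 1 TPM, a list written after the values were seen, 3 were past 1.5-fold higher (3.19% of all eye genes were). Ppbp, a platelet chemokine, had 1.27 and 7.52 TPM (2.47 [2.07 to 2.87]) and Pf4 12.3 and 25.2 TPM (1.02), and Gp9 of the platelet surface 0.625 and 2.46 TPM (1.82), at 1 TPM in the Tug1-/- mean alone, but the platelet integrin Itga2b had 3.35 and 3.40 TPM (0.02) and Gp1bb 8.95 and 6.32 TPM (-0.50). Of 4 neutrophil genes at 1 TPM, S100a8 (1.10 and 4.20 TPM, 1.84) and S100a9 (5.22 and 14 TPM, 1.41) were past the limit upward and Camp (2.35 and 1.40 TPM, -0.71, and -0.48 with a pseudocount of 1 TPM) downward. Csf3r, the receptor of granulocytes, had 3.09 and 3.90 TPM (0.32), and the neutrophil median was 0.87.

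Gland and mucosal genes held several large ratios. Of 9, 7 reached 1 TPM, and 5 were past 1.5-fold higher, beside 3.19% of all eye genes (median 1.08, and 0.65 over all 9 with no filter). Muc5ac, the gel-forming mucin of conjunctival goblet cells, had 0.556 TPM in wild type against 8.43 TPM in Tug1-/-, a log2 ratio of 3.70 [3.52 to 3.88], and reached 1 TPM in the Tug1-/- mean alone. With a pseudocount of 1 TPM its log2 ratio was 2.60. Pigr, which carries immunoglobulin A across epithelia, had 2.00 and 6.55 TPM (1.67), Agr2, a disulphide isomerase needed for mucin folding, 6.36 and 17.0 TPM (1.40), Ltf, lactoferrin, 3.52 and 7.56 TPM (1.08), and Wfdc2 39.2 and 61.7 TPM (0.65). Aqp5, the water channel of gland acini and of corneal epithelium, was the most abundant member and had 521 and 397 TPM (-0.39). Because of it the summed level was lower, 579 and 502 TPM, although the median ratio was higher.

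The goblet genes were looked at further after these values were seen. Tff1, a trefoil peptide packed with mucin, had 1.25 and 13.2 TPM (3.30), and Spdef, the goblet cell factor, 0.474 and 1.20 TPM (1.18), at 1 TPM in the Tug1-/- mean alone and inside the limit with a pseudocount of 1 TPM. Of 7 goblet genes at 1 TPM, 4 were past 1.5-fold higher (3.19% of all eye genes were), and 2 of these, Muc5ac and Spdef, entered through the Tug1-/- mean. The other 3 were within the limit, among them Creb3l1 (9.63 and 7.93 TPM, -0.28) and Fcgbp (2.35 and 2.64 TPM, 0.16). Clca1, another goblet gene, had 6.40 and 5.44 TPM (-0.23). Gp2, a glycoprotein of secretory granules and of antigen-sampling M cells, had 5.65 and 72.6 TPM (3.66 [3.53 to 3.79]). Gp2 was listed in 1 other tissue, spleen, at 4.49 and 74.0 TPM (4.01). Among lacrimal and salivary genes Prb1, a proline-rich protein, had 12.6 and 30.1 TPM (1.25) and Bpifa2 3.67 and 6.58 TPM (0.83), while Prom2, a membrane protein of epithelial cells, had 6.97 and 4.06 TPM (-0.76) and Slc12a2, the chloride cotransporter of acini, had 80.0 and 70.5 TPM (-0.18). Of the 7 genes of that list at 1 TPM, 2 were past the limit higher and 1 lower, beside 3.19% and 4.68% of all eye genes, and the median was -0.16. With means alone, 1 library that stands apart cannot be told apart from a difference in all 3.

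Immune gene lists differed in their medians, and most of their members were within the limit. None of 14 macrophage and microglia genes was past 1.5-fold, but 11 had a ratio above 1, beside 27.7% of all eye genes (median 0.23). The complement genes C1qa (90.7 and 119 TPM, 0.39), C1qb (85.1 and 110 TPM, 0.37) and C1qc (46.5 and 59.5 TPM, 0.35) and the mannose receptor Mrc1 of perivascular and tissue macrophages (9.90 and 13.5 TPM, 0.45) were on that side. The microglial genes Tmem119 (17.5 and 15.2 TPM, -0.20) and Cx3cr1 (7.98 and 7.52 TPM, -0.09) were not, and P2ry12 had 6.06 and 7.05 TPM (0.21).

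The antigen presentation list had a median of 0.33 over 10 genes with none past the limit. After centring, the list had a median of 0.44 and 4 genes past the limit higher, all of MHC class II (823 of all 19709 eye genes were). Of the MHC class II genes in it, Cd74, the invariant chain, had 153 and 224 TPM (0.54), H2-Aa 55.1 and 79.8 TPM (0.53), H2-Ab1 47.3 and 68.6 TPM (0.53) and H2-Eb1 68.0 and 98.7 TPM (0.54). In a wider class II list written after the values were seen, with 7 genes at 1 TPM, the median was 0.53, and H2-DMa (9.96 and 12.5 TPM, 0.33), H2-DMb1 (8.59 and 9.95 TPM, 0.21) and the class II transactivator Ciita (1.55 and 1.72 TPM, 0.15) had lower ratios. Of the class I genes, H2-K1 stood at 125 and 161 TPM (0.36), B2m, the light chain, at 674 and 828 TPM (0.30) and the peptide transporter Tap1 at 8.50 and 7.71 TPM (-0.14). Interferon-stimulated genes stood close to the median of all eye genes. Of 9, 8 reached 1 TPM, 1 of these (27.7% of all eye genes) had a ratio above 1, and the median was -0.16, or -0.05 after centring, with Isg15 at 27.4 and 21.6 TPM (-0.34), Ifit3 at 67.3 and 61.3 TPM (-0.13) and Bst2 at 61.6 and 70.4 TPM (0.19). B and plasma cell genes (6 at 1 TPM, median 0.24, 0.0058 with no filter) and T cell genes (3 at 1 TPM, median -0.14, 0.06 with no filter) had low levels. Igkc, the immunoglobulin kappa constant region, was the most abundant at 11.6 and 14.5 TPM (0.31).

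Endothelial genes had a median of 0.22 over 10, none past the limit. Pecam1 (18.8 and 25.4 TPM, 0.44), Vwf (11.2 and 15.3 TPM, 0.44) and Cdh5 (27.4 and 36.2 TPM, 0.40) were higher, whereas the VEGF receptor Kdr, the most abundant, had 72.0 and 59.6 TPM (-0.27) and the barrier claudin Cldn5 49.1 and 35.4 TPM (-0.47). Of 10 myelin genes, 9 had a ratio above 1, beside 27.7% of all eye genes (median 0.23). Prx, periaxin of Schwann cells, had 10.7 and 17.6 TPM (0.71). The central myelin genes Mbp (308 and 372 TPM, 0.27) and Mog (31.4 and 35.4 TPM, 0.17) differed less, and Olig1 of the oligodendrocyte lineage had 14.4 and 14.2 TPM (-0.01).

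Respiratory chain genes had medians above that of all eye genes. No nuclear subunit of complexes I to V was past 1.5-fold, and the medians were 0.22 over 36 subunits of complex I, 0.25 over 4 of complex II, 0.26 over 9 of complex III, 0.23 over 11 of complex IV and 0.24 over 15 of complex V. A ratio above 1 was found for 35, 4, 9, 9 and 14 of them, beside 27.7% of all eye genes, and single log2 ratios ran from -0.13 to 0.41. Ndufb11, the most abundant complex I subunit, had 476 and 548 TPM (0.20), Ndufa5 162 and 212 TPM (0.39), Sdhb, the iron-sulphur subunit of succinate dehydrogenase, 187 and 240 TPM (0.36), and Atp5b, the catalytic beta subunit of ATP synthase, 1058 and 1216 TPM (0.20). Cox8a, the most abundant of complex IV, and Cox6a1 had 804 and 734 TPM (-0.13) and 413 and 398 TPM (-0.05). Ppargc1a, a coactivator of mitochondrial biogenesis that the study discusses, was at equality, with 34.3 and 34.5 TPM (0.01, and 0.12 after centring).

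Of the 13 protein genes of mitochondrial DNA, 9 reached 1 TPM, and all 9 had a ratio above 1, beside 27.7% of all eye genes (median 0.34). Their summed level was 88781 TPM in wild type against 111018 TPM in Tug1-/-, or 8.88% and 11.1% of all TPM. The most abundant was mt-Co1 with 28733 and 36852 TPM (0.36), followed by mt-Cytb with 19083 and 22880 TPM (0.26). The gene past the limit, mt-Atp8, had 0.388 and 1.11 TPM on almost no reads. Mt-Co2, mt-Co3, mt-Atp6 and mt-Nd4l were each below 1 TPM in both means. These have close nuclear copies, and reads with several places were not counted, so their values say little. The complex I median was 0.12 in heart and -0.07 in MEFs, and the mitochondrial median -0.17 and -0.55. Skeletal muscle, whose markers were higher in the same eyes, is rich in mitochondria; the part it has in these values was not tested.

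No ribosomal protein gene was past the limit. The 47 of the large subunit had a median of 0.07, and the 32 of the small subunit 0.08, or 0.17 and 0.19 after centring. Heat shock genes had a median of 0.13 over 15, from Hspa1b (44.4 and 35.5 TPM, -0.32) to Bag3, a cochaperone abundant in muscle (42.8 and 56.9 TPM, 0.41). Genes of the endoplasmic reticulum stress response had a median of 0.08 over 13, with Hspa5, BiP, at 229 and 256 TPM (0.16) and Herpud1 at 132 and 159 TPM (0.27).

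Of 11 immediate early genes, 2 had a ratio above 1 (27.7% of all eye genes did), 7 were below the median of all eye genes and 4 above it, and the median was -0.31. Egr1 was past 1.5-fold lower at 45.9 and 25.5 TPM (-0.85 [-0.90 to -0.79]), with Junb at 49.9 and 33.4 TPM (-0.58), Fos at 50.4 and 37.5 TPM (-0.42) and Nr4a1 at 58.8 and 57.4 TPM (-0.03). Egr2, which Schwann cells also express, was past it upward at 0.994 and 1.81 TPM (0.80), but not with a pseudocount of 1 TPM (0.49). Circadian clock genes had a median of -0.12 over 15, the level of all genes, with none past the limit. Arntl, the positive arm, had 34.0 and 28.5 TPM (-0.26), Npas2 2.81 and 1.97 TPM (-0.49), and the negative arm Per1 59.0 and 67.2 TPM (0.19) and Per2 24.8 and 29.0 TPM (0.23). The most abundant, Nr1d1, had 236 and 223 TPM (-0.08).

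Genes induced by glucocorticoids all had a ratio above 1 (9 of 9, beside 27.7% of all eye genes, median 0.32), with 2 past 1.5-fold higher (3.19% of all eye genes were). These were Tsc22d3, the leucine zipper protein GILZ, with 55.3 and 93.1 TPM (0.75 [0.72 to 0.79]), and the zinc finger factor Zbtb16 with 6.11 and 9.94 TPM (0.69). Fkbp5, a cochaperone of the receptor, had 16.5 and 20.4 TPM (0.31), the metallothioneins Mt1 and Mt2 260 and 326 TPM (0.32) and 120 and 150 TPM (0.32), and Sgk1, the most abundant, 328 and 348 TPM (0.08). The list median was 0.82 in heart, 1.16 in liver, 0.60 in prostate, 0.26 in spleen and 0.13 in MEFs, so the eye value lay between those of spleen and prostate.

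**Figure D4:**
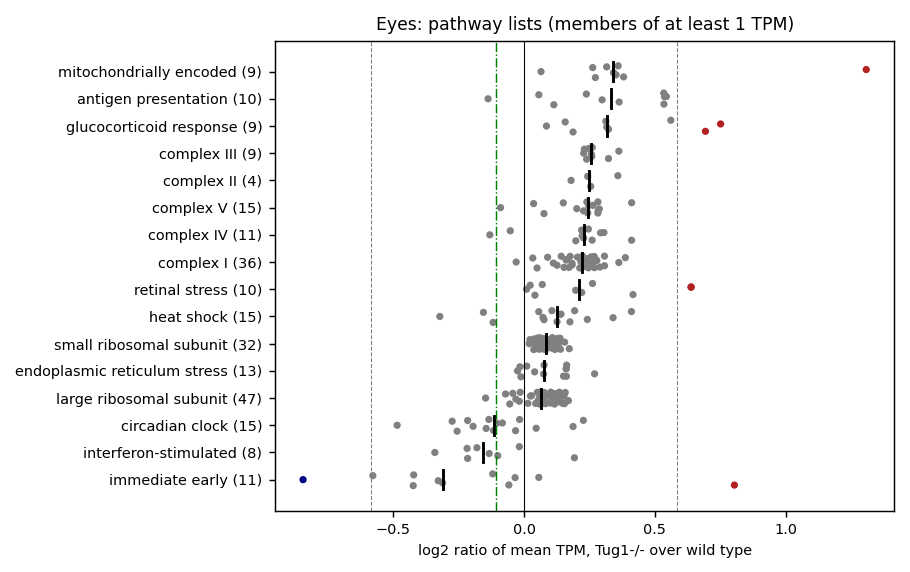
Log2 ratio of mean TPM, Tug1-/- over wild type (x axis), of the members of each pathway list of at least 1 TPM (their number in brackets), drawn as in the marker plot. The 5 respiratory complexes have medians of 0.22 to 0.26, the ribosomal lists 0.07 and 0.08, and immediate early genes -0.31; the far right point of the mitochondrially encoded list is mt-Atp8 on almost no reads.

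Eye genes past the limit were then looked up in the other 5 tissues, a comparison chosen after the values were seen. Among the 628 higher eye genes, 19 (3.03%) were past 1.5-fold higher in at least 3 of them, beside 62 of all 19709 eye genes (0.315%). Among the 923 lower ones, 10 (1.08%) were lower in at least 3, beside 26 of all eye genes (0.132%). The 10 include the deleted Tug1 itself and Morc2a, and the 19 include the Tug1 neighbours Rnf185, Selenom and 8430429K09Rik. Cd59b, a complement regulator, had 3.09 and 7.04 TPM in eyes (1.16) and was higher in all 5 others, with 1.08 in heart, 0.64 in liver, 1.65 in spleen, 0.93 in prostate and 0.82 in MEFs. Rps4l, a processed copy of a ribosomal protein gene, had 85.7 and 182 TPM (1.09), with 2.22, 2.33, 3.61, 3.75 and 1.26 in the same order. Gm6723, a pseudogene, had 1.21 and 5.08 TPM (1.98). Hp, Cd163, Pf4, Lcn2, Cxcl13, Tsc22d3 and Zbtb16 were among the other protein-coding genes. Cd163, the haemoglobin-haptoglobin scavenger receptor of macrophages, had 5.09 and 11.2 TPM in eyes (1.12) and 0.84 in heart, 0.52 in liver, 0.61 in spleen and 1.45 in prostate. Of the 10 lower genes, 4 are processed pseudogenes, whose reads can be shared with the parent gene, so their values are uncertain. One of these, Gm6334 had 3.62 and 0.110 TPM in eyes (-4.15) and -5.24 in heart.

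Finally, eye genes were sorted by where else they are made, also after the values were seen. Genes at least 4 times as abundant in eyes as in any of the other 5 tissues numbered 3103. Their median log2 ratio was -0.23, with 115 past 1.5-fold higher (3.71%) and 322 lower (10.4%). Genes led by heart, a striated muscle, that were at least 4 times as abundant there as in eyes numbered 231 and had a median of 0.41, with 84 higher (36.4%) and 2 lower (0.866%). Of all eye genes, 3.19% were higher and 4.68% lower. For genes led by liver (442) the median was 0.02, with 8.60% higher and 3.62% lower. Genes led by spleen (943) had a median of 0.05, with 8.17% higher and 2.97% lower. Prostate (459 genes) gave -0.03, with 4.36% higher and 5.01% lower, and MEFs (809 genes) -0.04, with 1.73% higher and 2.22% lower.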

How the data were processed

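RNA of snap-frozen, pulverized eyes was sequenced as polyA TruSeq libraries (101-bp paired reads, pools of 6 libraries that mixed genotypes). Per the study's methods and the submitters' processing notes, bases were called with CASAVA 1.8.2, reads aligned with STAR to mm10 (GRCm38) with GENCODE annotation, and uniquely mapped reads counted per gene with featureCounts; genes below 3 reads in all replicates had been dropped. Versions of these tools and the strand setting are not given in the sources used here. The deposited table holds, for each gene and tissue, a signal in 3 columns used here: the authors' mean TPM of each genotype, and the mean over both genotypes of counts divided by DESeq2 size factors. Further deposited columns hold the authors' own comparisons (fold changes, standard errors, statistics, p-values and calls) and were not used, and neither were brain rows, which come from libraries outside this series, nor the testes table. The label of each eye sample points to the other table, so the tissue column decided.

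Depth of single libraries is unknown. Log2 ratios used a pseudocount of 0.1 TPM and genes of at least 1 TPM in either mean. The read number of a group was estimated from the mean normalized count and the share of its TPM, and the counting interval took these as Poisson counts of 3 libraries. No test was run, since values of single libraries were not analysed here. Tissues were joined by gene identifier; 29 names occur more than once in the eye rows, and lists took the row with the higher mean count. Named genes are Tug1, genes within 1 Mb past 1.5-fold, the 15 highest and 15 lowest ratios elsewhere (at least 5 TPM and a mean count of at least 50), from each list the most abundant member, the extremes, the defining markers and those past 1.5-fold, and genes the study discusses. Further list and family members were named after their values were seen. Some list members are counted in their lists but not reported here by name. Members, lists and the rule were chosen with earlier results of these data known. Promoters come from RefSeq (GRCm38.p6). Ratios and intervals were tested on simulated data. Alternatives were other pseudocounts, filters, scalings, fold limits and windows. Work used Python 3.11.15, numpy 2.4.6, pandas 2.3.3 and matplotlib 3.10.9.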

Additional observations from a re-analysis of the deposited data

How the results depend on the processing

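The number of eye genes past 1.5-fold, 1551 as reported, was 861 with a pseudocount of 1 TPM, 3570 with no filter, 606 with a filter of 5 TPM, 631 with a mean normalized count of at least 50, 420 at a fold limit of 2 and 671 for protein-coding genes only. Near Tug1 the count of 9 became 17 with no filter, 6 with a pseudocount of 1 TPM, 7 on centring and 0 at a fold limit of 2. The Tug1 log2 ratio of -7.43 became -5.57 with a pseudocount of 1 TPM and -7.88 with 0.01 TPM. The number of lists whose median was past 1.5-fold was 5 as reported and 4 when skeletal muscle list genes were left out. Of the other values, 9 list medians moved by more than the SD between list members, all on centring, while 338 did not; 34 single-gene values left their counting interval and 323 did not. No list median or named gene past 1.5-fold changed sign; small medians that did are given beside their lists. Of the sources of error, the spread between mice is the one these means do not show, and low genes rest on few reads. No paired analysis was possible because only group means are given, and for the same reason no replicate could be left out.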
